A study of Homo sapiens with 3 samples.

Results

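The replication-dependent histone gene cluster of chromosome 6 was examined for summits of HA-tagged TFE3. It was taken as 2 blocks on hg19, chr6:26015001-26290000 (275 kb) and chr6:27090001-27870000 (780 kb), with the stretch between them, chr6:26290001-27090000 (800 kb), as the local comparison. The blocks held 99 of the 62287 summits of replicate 1 and 112 of the 72647 summits of replicate 2 on chromosomes 1 to 22 and X. The stretch between held 53 and 57. A summit is the single base that the authors listed for a bound region, with a score. Summits of the 2 lists that were each other's nearest and lay at most 100 bp apart are called a pair. The blocks held 80 of 47396 pairs (32 in the first block and 48 in the second), and the stretch between held 40.

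The summits came from chromatin immunoprecipitation and sequencing in HK-2 cells, an established human kidney proximal tubule line, with 2 replicate HA-TFE3 ChIP libraries and 1 input DNA library that entered no comparison. All libraries came from cells carrying a doxycycline-inducible HA-TFE3 gene, the ChIP was made through the HA tag, and the treatment protocol covers 24 h of culture with or without 0.2 µg/ml doxycycline. The labels do not say which libraries were induced, whether the cells were a single clone, or whether the replicates were separate cultures. Their spread may therefore be technical. No source used here states the scale of the score, so scores are printed as deposited and compared between lists only by percentile, the rank within a list.

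Replication-dependent histone genes supply the core histones H2A, H2B, H3 and H4 and the linker histone H1 that package DNA as it is copied. They are short, lack introns, are transcribed mainly during DNA synthesis, and give transcripts that end in a stem-loop in place of a poly(A) tail. TFE3, a transcription factor of the MiT/TFE family with a basic helix-loop-helix and a leucine zipper, is known to bind E-boxes and to control lysosomal and autophagy genes.

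The gene content was read from the order of genes in RefSeq, which is on GRCh38 and not on the build of the summits, so no summit was assigned to a gene. From H1-1 to H2BC17 this order held 53 protein-coding histone genes, with 6 for H1, 11 for H2A, 14 for H2B, 10 for H3 and 12 for H4. A first group from H1-1 to H4C8 held 32 of them among 33 protein-coding genes. The other was HFE, a regulator of iron uptake that was looked up after the count was seen. A second group from H2BC11 to H2AC12 held 5 histone genes, and a last group from H2BC13 to H2BC17 held 16. Between the second and last groups lay 51 tRNA genes and 5 protein-coding genes, none of them a coding histone gene. The second block of the rule thus spans more than histone genes. Between the first and second groups, 6 of 9 protein-coding genes were butyrophilins, membrane proteins of the immunoglobulin superfamily, but 47 tRNA genes lay there as well. The description of this stretch as mostly butyrophilin genes therefore holds for its protein-coding genes and not for all of its genes.

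Promoters of the histone genes were read from RefSeq sequence (GRCh38.p14), which had an entry for 48 of the 53 genes. For H2AC12, H3C11, H3C12, H4C1 and H4C3 it had none that matched. The 200 bases before the annotated start are shown for the first matched gene of each histone type, to show what these promoters hold where E-boxes were searched. They lie at chr6:26017788-26017987 (minus strand) for H1-1, a linker histone, chr6:26033619-26033818 (minus) for H2AC4, chr6:26043714-26043913 (minus) for H2BC3, chr6:26020251-26020450 (plus) for H3C1 and chr6:26027284-26027483 (minus) for H4C2. These GRCh38 positions must not be set beside the hg19 positions of the summits. Capitals mark CCAAT, its reverse complement ATTGG, and TATAAA.
H1-1: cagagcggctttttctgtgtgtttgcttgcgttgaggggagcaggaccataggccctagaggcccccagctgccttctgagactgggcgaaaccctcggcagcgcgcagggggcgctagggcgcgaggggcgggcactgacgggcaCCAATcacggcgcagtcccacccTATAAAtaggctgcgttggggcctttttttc
H2AC4: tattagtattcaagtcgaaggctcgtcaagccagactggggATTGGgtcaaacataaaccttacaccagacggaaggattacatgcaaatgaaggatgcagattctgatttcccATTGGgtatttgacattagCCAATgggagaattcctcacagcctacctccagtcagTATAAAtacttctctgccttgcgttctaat
H2BC3: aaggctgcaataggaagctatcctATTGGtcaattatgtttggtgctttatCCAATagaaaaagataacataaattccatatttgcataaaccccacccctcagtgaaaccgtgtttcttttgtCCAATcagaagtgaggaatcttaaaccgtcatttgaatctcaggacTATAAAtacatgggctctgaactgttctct
H3C1: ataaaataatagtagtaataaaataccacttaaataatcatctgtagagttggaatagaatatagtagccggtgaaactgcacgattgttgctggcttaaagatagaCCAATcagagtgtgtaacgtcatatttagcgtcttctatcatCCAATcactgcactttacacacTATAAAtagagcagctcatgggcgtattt
H4C2: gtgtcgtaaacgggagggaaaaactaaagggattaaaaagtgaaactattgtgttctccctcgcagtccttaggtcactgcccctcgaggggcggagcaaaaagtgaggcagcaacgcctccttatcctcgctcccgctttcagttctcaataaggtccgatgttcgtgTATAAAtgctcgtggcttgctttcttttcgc

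All 5 carried TATAAA between 29 and 31 bases before the start. H1-1 held 1 CCAAT, and H3C1 held 2. H2AC4 held 1 CCAAT and 2 ATTGG, and H2BC3 held 2 CCAAT and 1 ATTGG. H4C2 held neither in the bases shown.

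Motifs were then searched on both strands of the full promoter window, 250 bases before to 50 bases after the start. The canonical E-box CACGTG occurred in 0 of 48 histone promoters, against 7.43% of all 27305 promoters in the table. CATGTG, the core of the M-box that MiT/TFE factors are known to bind, also occurred in 0 of 48, against 11.2% of all. The looser E-box CANNTG, which includes both and was added after these counts were seen, occurred in 72.9% of histone promoters and 68.9% of all. CCAAT was present in 41 of 48 (85.4%), against 35.7% of all, and TATAAA in 31 of 48 (64.6%), against 11.95% of all. All H1, H2A, H2B and H3 promoters matched held CCAAT, and 3 of the 10 H4 promoters did. Members of a histone family resemble each other in sequence, so these promoters are not independent. The windows could not be set against the summits, and a window without the letters says nothing of whether the factor was there.

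The first comparison asked how densely HA-TFE3 summits lay in the blocks. The first block held 36 summits in replicate 1 and 39 in replicate 2, or 130.9 per Mb (95% exact Poisson interval 91.7 to 181) and 141.8 per Mb (100.9 to 194). The second held 63 and 73, or 80.8 (62.1 to 103.3) and 93.6 (73.4 to 118) per Mb. The stretch between had 66.25 (49.6 to 86.7) and 71.25 (54.0 to 92.3) per Mb. Over chromosomes 1 to 22 and X the densities were 20.5 and 23.9 per Mb, and over chromosome 6 they were 21.8 and 25.6. All 3 regions were thus denser than the chromosome they lie on, in each library. The intervals reflect counting error alone, and summits close to each other are not independent.

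**Figure D1:**
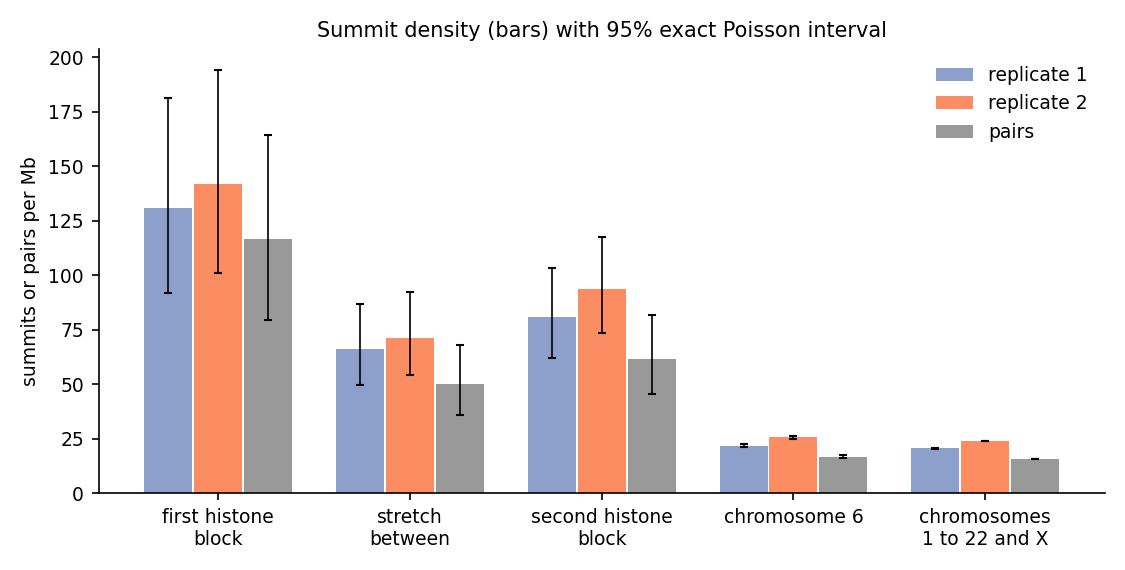
Density of HA-TFE3 summits in each library and of pairs (vertical axis, per Mb) in the first histone block, the stretch between, the second histone block, chromosome 6 and chromosomes 1 to 22 and X, with bars for the density and lines for the 95% exact Poisson interval. The first block stands highest in each list, from 116.4 per Mb for pairs to 141.8 per Mb for replicate 2, and all 3 regions stand above chromosome 6.

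Relative to the rest of the genome, the density in both blocks together was 4.51 ± 0.097 times as high (SD, n = 2 libraries), with 4.58 in replicate 1 (exact interval 3.72 to 5.58) and 4.44 in replicate 2 (3.66 to 5.35). For pairs it was 4.86 times as high (3.86 to 6.06). The number of summits in replicate 2 was 1.13 times that in replicate 1 in the blocks, 1.07 times in the stretch between and 1.17 times over the genome. The blocks were thus dense in both libraries alike.

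Counts of stretches of this length vary widely along the genome, so each block was set among all genome tiles of its own length that held a pair. The first block, with 32 pairs, lay above 7714 of 7736 tiles of 275 kb (99.7%). Their median was 4 pairs and their maximum 39. The second block, with 48 pairs, lay above 97.1% of 3322 tiles of 780 kb, whose median was 11. The stretch between, with 40 pairs, lay above 94.1% of 3234 tiles of 800 kb, whose median was also 11. Each library alone gave similar places, 99.5% and 99.4% for the first block and 97.6% and 97.8% for the second. Tiles at or above the first block numbered 22, so it was among the densest stretches of its length but did not stand alone.

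**Figure D2:**
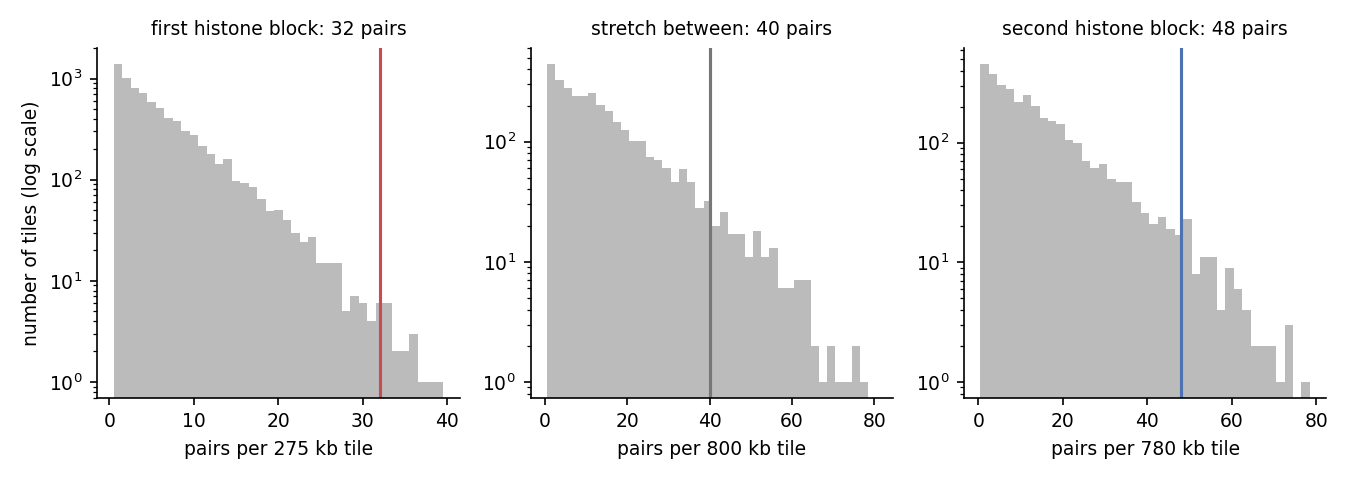
Number of genome tiles (vertical axis, log scale) by the pairs each tile holds (horizontal axis), for tiles of 275, 800 and 780 kb with at least 1 pair, and the count of each region as a vertical line. The line of the first block (32 pairs) lies nearest the end of its distribution, whose maximum is 39, and those of the stretch between (40) and the second block (48) lie further inside theirs.

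Set against the stretch between, both blocks together had 1.45 ± 0.052 times its density of summits (SD, n = 2 libraries). The ratio was 1.42 in replicate 1 (interval 1.005 to 2.02, two-sided exact conditional test, p = 0.0407, adjusted p = 0.0543 over 8 such tests). In replicate 2 it was 1.49 (1.07 to 2.09, p = 0.0158, adjusted p = 0.0422, also exact). It thus passed an adjusted threshold of 0.05 in 1 library of 2. Each block was also set alone against the stretch between, in tests that were added after the counts were seen. The first block alone had 1.98 times the density of the stretch between in replicate 1 (interval 1.26 to 3.07) and 1.99 times in replicate 2 (1.29 to 3.04), with an exact adjusted p of 0.00877 in each. The second block alone had 1.219 times (0.833 to 1.79, exact adjusted p = 0.308) and 1.31 times (0.916 to 1.89, exact adjusted p = 0.155), which did not pass. The first block was 1.62 times as dense as the second in replicate 1 (1.045 to 2.48, exact adjusted p = 0.0443). In replicate 2 it was 1.52 times as dense (0.9999 to 2.265, exact adjusted p = 0.0543). Both lists largely hold the same sites, so the libraries are not independent evidence of a regional difference, and clustering of summits makes these p-values too small.

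The pairs were not spread evenly inside the regions. In bins of 50 kb, the first block held pairs in each of its 6 bins, from 3 to 9 a bin. In the second block, the first 2 bins held 12 pairs in 100 kb (120 per Mb, exact Poisson interval 62.0 to 210) and the last 3 held 13 pairs in 130 kb (100 per Mb, 53.2 to 171). The 550 kb between them held 23 pairs (41.8 per Mb, 26.5 to 62.7). In the stretch between, 31 of 40 pairs lay in the first 300 kb (103.3 per Mb, 70.2 to 147), a density near that of the first block, and 9 in the last 500 kb (18.0 per Mb, 8.23 to 34.2). Counted in summits, these first 300 kb had 136.7 per Mb in replicate 1 and 140 in replicate 2. The first block had 130.9 and 141.8, and the last 500 kb of the stretch between had 24 and 30. The ratios above take the stretch between as a whole. These parts were set after the bins were seen and were not tested.

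**Figure D3:**
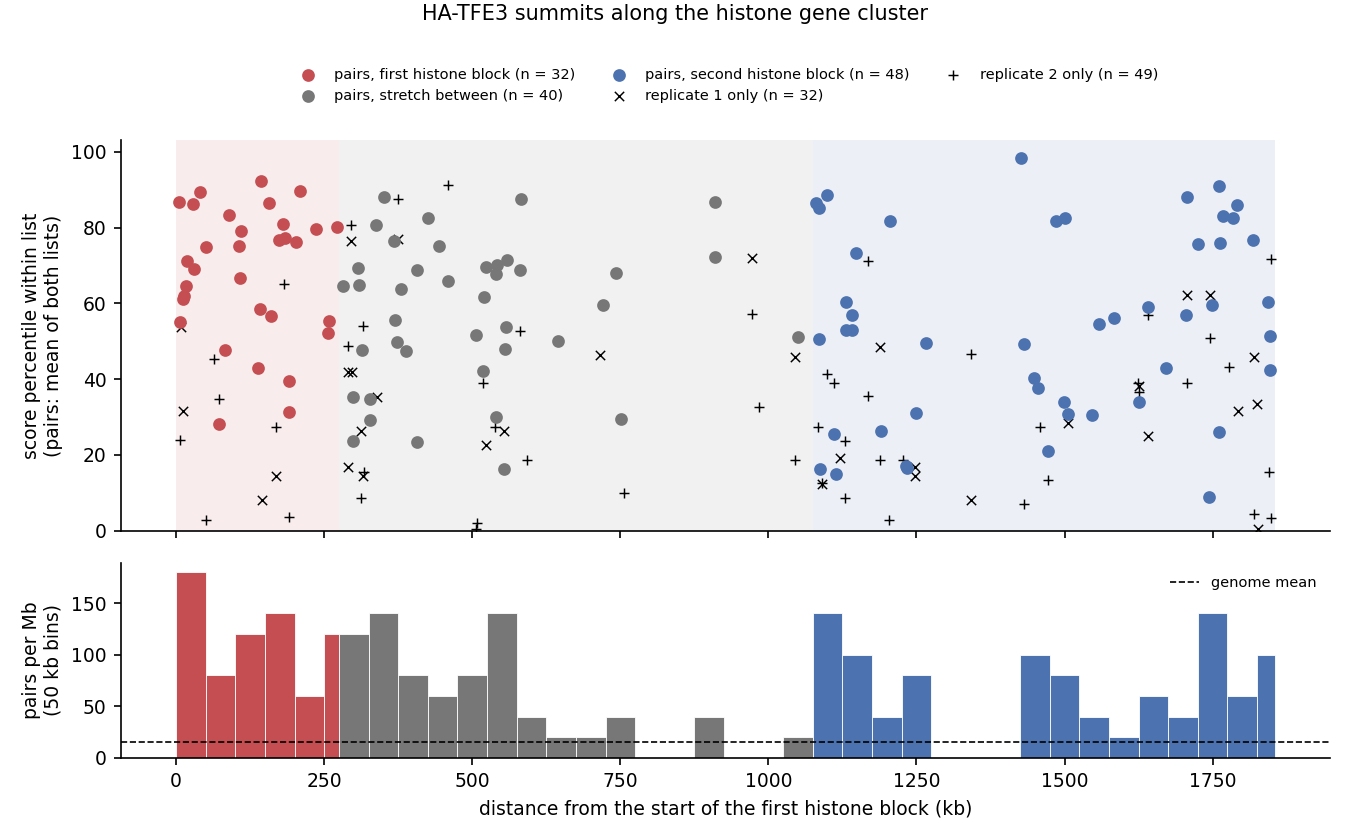
HA-TFE3 summits by distance from the start of the first histone block (horizontal axis, kb). The upper panel gives the score percentile (pairs as filled points at the mean of both lists, summits of a single library as crosses), and the lower panel pairs per Mb in 50 kb bins with the genome mean of 15.6 per Mb as a dashed line. Pairs fill the first block and the first 300 kb of the stretch between, and thin out in the last 500 kb of that stretch and in the middle of the second block.

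The longest part of the blocks without a summit in either list ran from base 27356744 to 27440920, over 84.2 kb of the second block. Next to it, 75.9 kb from base 27280624 to 27356479 were also empty, so that 160.3 kb held no pair and, near its middle, 1 single summit of each library, 265 bp apart. In the first block the longest empty part was 28.7 kb, from base 26124311 to 26153014. The stretch between had an empty part of 152.7 kb, from base 26771382 to 26924040.

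Windows of 10 kb gave the same order. Pairs were found in 19 of 28 windows of the first block (67.9%) and 36 of 78 of the second (46.2%), together 55 of 106 (51.9%). In the stretch between 25 of 80 windows held a pair (31.25%), and of all genome windows 11.9% did. The window with most pairs was chr6:26020001-26030000 in the first block. It held 4 pairs, at bases 26020599, 26021771, 26026618 and 26027601 of replicate 1, and at least as many pairs were found in 505 windows of the genome (0.166%). The next windows, chr6:26120001-26130000 and chr6:26150001-26160000 in the first block and chr6:27770001-27780000 in the second, held 3 pairs each. So did 4 windows of the stretch between, starting at bases 26320001, 26380001, 26530001 and 26550001, and windows with at least 3 pairs numbered 2109 in the genome (0.695%). Dense windows were thus found in all 3 regions.

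Neighbouring pairs lay a median of 6.30 kb apart in the first block, 12.3 kb in the second and 8.93 kb in the stretch between, against 17.7 kb over the genome. Distances of at most 1 kb made up 3 of 31 in the first block (9.68%, exact binomial interval 2.04 to 25.8) and 5 of 47 in the second (10.6%, 3.55 to 23.1). Over all pairs the share was 8.71%, inside both intervals. In the stretch between 8 of 39 distances were that short (20.5%, 9.30 to 36.5).

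How often block summits recurred in the other library was compared with the whole lists. In replicate 1, 80 of 99 block summits were paired (80.8%, exact binomial interval 71.7 to 88.0), against 76.1% of the whole list. In replicate 2, 80 of 112 were (71.4%, 62.1 to 79.6), against 65.2%. The genome share lay inside the interval in each library. By block, the share was 88.9% (73.9 to 96.9) and 82.1% (66.5 to 92.5) in the first and 76.2% (63.8 to 86.0) and 65.8% (53.7 to 76.5) in the second. The first block in replicate 2 was the only one of these whose interval lay above the share of its list. In the stretch between, the share was 75.5% (61.7 to 86.2) in replicate 1 and 70.2% (56.6 to 81.6) in replicate 2.

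The bases of a pair lay a median of 24.5 bp apart in the first block, 18.5 bp in the second and 21.5 bp in the stretch between, against 26 bp over all pairs. In the blocks 67 of 80 pairs lay within 50 bp (83.8%, exact interval 73.8 to 91.1), against 79.3% of all pairs. In the stretch between 34 of 40 did (85.0%, 70.2 to 94.3). A single block pair of the 80, at base 26175832, had the same base in both libraries. So did 1 of 40 pairs in the stretch between and 882 of 47396 pairs over the genome.

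Scores in the first block lay mostly above the middle of the lists. Of its summits, 26 of 36 in replicate 1 (72.2%, exact interval 54.8 to 85.8) and 30 of 39 in replicate 2 (76.9%, 60.7 to 88.9) scored above the list's median, and the median percentiles were 64.4 and 66.0. In the second block 29 of 63 (46.0%, 33.4 to 59.1) and 33 of 73 (45.2%, 33.5 to 57.3) did, with median percentiles of 45.9 and 44.7. Over the whole lists the shares were 50.8% and 49.6%. The stretch between lay close to the middle, with median percentiles of 52.5 and 57.2.

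The highest 10% of scores took in 6 of 99 block summits in replicate 1 (6.06%, exact interval 2.26 to 12.7) and 7 of 112 in replicate 2 (6.25%, 2.55 to 12.5), with the whole lists' shares of 9.94% and 9.99% inside both intervals. In the first block alone it took in 3 of 36 (8.33%, 1.75 to 22.5) and 3 of 39 (7.69%, 1.62 to 20.9), near those shares. Only 2 of 80 block pairs (2.50%) were in the highest 10% of both lists, against 9.11% of all pairs. In the highest 20% of both lists were 13 of 80 (16.25%), against 19.5% of all. The stretch between had 0 of 40 and 3 of 40 such pairs.

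The pairs with the highest mean percentile in the first block all lay in band 6p22.2 and are given by their base in replicate 1. Base 26158234 led, with scores of 26.4 in replicate 1 and 30.4 in replicate 2. Base 26224307 scored 25.8 and 24.8, and base 26055721 scored 23.5 and 26.4. Their percentiles were 91.4 and 93.0, 90.9 and 88.6, and 88.6 and 90.2, close in the 2 libraries. Base 26020599 scored 18.4 and 29.4, base 26172200 scored 21.6 and 22.4, and base 26044063 scored 28.0 and 17.9. The first and last of these differed more between libraries, in opposite directions, with percentiles of 81.3 and 92.4 at base 26020599 and of 92.6 and 79.8 at base 26044063. Base 26104068 (20.8 and 18.9), base 26195727 (16.03 and 20.9), base 26285842 (18.3 and 17.9) and base 26251723 (20.4 and 15.4) completed the 10. The other 22 pairs of this block had mean percentiles from 28.3 to 79.1, and none was below 25.

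In the second block, in band 6p22.1, base 27440921 stood apart from the other pairs. It scored 36.4 in replicate 1 and 66.5 in replicate 2, at percentiles of 96.7 and 99.8, and its summits lay 1 bp apart. It ended the 160.3 kb without a pair described above. The next highest percentile in the 3 regions was 93.1 for replicate 1 (base 27100699) and 93.7 for replicate 2 (base 27722016). Next came base 27775869 (28.6 and 25.4), base 27114737 (21.6 and 27.2) and base 27722016 (18.6 and 31.5). Base 27095008 scored 23.2 and 21.5, base 27806205 scored 21.6 and 21.9, and base 27100699 scored 28.7 and 16.7. The 10 were completed by base 27782625 (16.03 and 24.5), base 27799423 (20.8 and 17.9) and base 27516536 (20.2 and 18.3). Of these 10 pairs, 3 lay in the first 100 kb of the block and 4 in the last 130 kb. The other 38 pairs had mean percentiles from 8.79 to 81.7, with 6 below 25. High and low scores thus stood side by side in this block.

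In the stretch between, no pair reached a mean percentile of 90. Base 26365414 (24.5 and 22.5), base 26597071 (24.1 and 22.05) and base 26924077 (26.4 and 19.4) were its highest. The next were base 26440683 (15.97 and 23.7), base 26351899 (18.6 and 17.9), base 26383320 (12.3 and 23.1) and base 26458089 (9.96 and 28.6). The last of these differed most in percentile among the 10, with 58.2 in replicate 1 and 91.8 in replicate 2. Base 26924799 (14.4 and 14.1), base 26572933 (10.7 and 19.4) and base 26556856 (14.4 and 12.6) followed. The other 30 pairs had mean percentiles from 16.1 to 69.6.

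**Figure D4:**
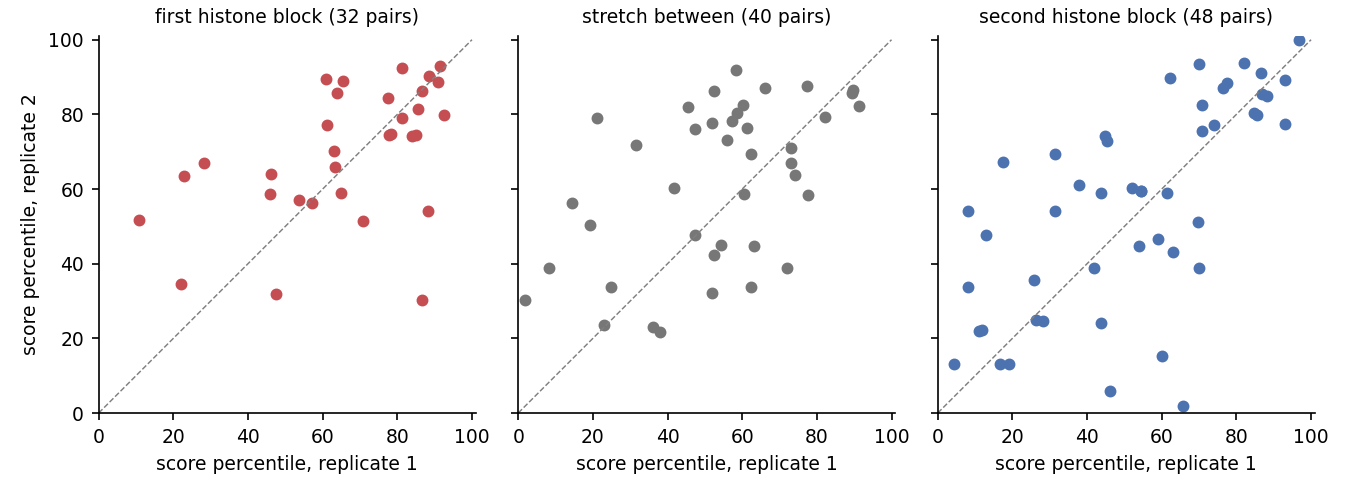
Score percentile in replicate 1 (horizontal axis) against that in replicate 2 (vertical axis) for each pair of the first histone block, the stretch between and the second histone block, with the line of equal percentiles dashed. Pairs of the first block gather in the upper right, with median percentiles of 68.1 and 74.3. Those of the second block spread over the whole range, with medians of 54.3 and 59.2. Over all pairs of the genome the medians were 59.1 and 64.3, above those of the second block.

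Across pairs, the rank correlation of scores between libraries was 0.516 over the 32 pairs of the first block, 0.711 over the 48 of the second and 0.481 over the 40 of the stretch between, against 0.729 over all pairs. These are correlations across sites of the same 2 libraries and carry no p. The median difference in percentile within a pair was 10.8 points in each block and 18.4 in the stretch between, against 11.8 over all pairs. The percentile was higher in replicate 2 for 44 of 80 block pairs (55.0%, exact interval 43.5 to 66.15), near the 57.2% of all pairs.

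In the blocks, summits of a single library were mostly weak. In the stretch between, their median percentiles were 41.7 in replicate 1 and 32.6 in replicate 2, and their highest 76.9 and 91.3. The first block held 4 in replicate 1 and 7 in replicate 2, with median percentiles of 22.98 and 27.4, and the second held 15 and 25, with medians of 28.3 and 27.4. In the first block the highest were bases 26022596, 26026075 and 26183860 in replicate 1 (scores 9.42, 6.02 and 4.54) and bases 26197591, 26078498 and 26087664 in replicate 2 (12.2, 8.11 and 6.47). In the second they were bases 27721222, 27760040 and 27203386 in replicate 1 (11.2, 11.2 and 8.50) and bases 27863443, 27182641 and 27656027 in replicate 2 (14.1, 14.1 and 9.78). In the second block, 8 of 15 and 11 of 25 single summits had a summit of the other list within 500 bp. In the first block 1 of 4 and 3 of 7 did, and in the stretch between 6 of 13 and 9 of 17. The share over all single summits of the lists was not computed. For some single summits of the second block that neighbour was itself already paired, as for base 27099431 of replicate 2, 403 bp from base 27099834 of replicate 1. In the stretch between, 13 and 17 summits were single, led by base 26389741 (15.9), base 26310109 (15.9) and base 26988057 (14.1) in replicate 1 and by base 26474505 (27.7), base 26389920 (23.7) and base 26310231 (18.7) in replicate 2. Of these, bases 26389741 and 26389920 lay 179 bp apart and bases 26310109 and 26310231 lay 122 bp apart, so their sites recurred in both libraries beyond the limit of 100 bp.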

How the data were processed

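Per the labels' protocols, chromatin was digested enzymatically and precipitated with an anti-HA matrix, for 2 ChIP libraries, with 1 input library. The authors deposited, per ChIP library, 1 bp summits with a score of undocumented scale on hg19, per the submitters' processing notes. For the aligner, peak caller, thresholds and use of the input: not given in the sources used here. Sequencing depth is unknown, and depth and threshold both set how many summits a list holds. Positions were made 1-based, and summits off chromosomes 1 to 22 and X were left out (35 and 45). Ratios of densities carry exact conditional binomial intervals, all at 95%, with Benjamini-Hochberg adjustment over 8 tests, of which 4 (each block alone against the stretch between) were added after the counts were seen. Tiles and windows started at base 1 of each chromosome. Pairing and intervals were tested on simulated lists. Chromosome lengths and band names were those of circlize for hg19, and gene order and promoters those of RefSeq on GRCh38.p14. The region and lists were chosen with earlier results of these data known. Named pairs are the 10 of highest mean percentile per region, named single summits the 3 highest per region and library. Alternatives were pairing limits of 50, 200 and 500 bp, summits above the median score, the 10000 highest-scoring summits, each library alone, regions shortened by 25 kb at each end, summits within 1 kb merged, and windows of 5 and 20 kb. Python 3.11.15, NumPy 2.4.6, pandas 2.3.3, SciPy 1.17.1 and matplotlib 3.10.9 were used.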

Additional observations from a re-analysis of the deposited data

How the results depend on the processing

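The 3 density ratios run under alternatives (both blocks to the stretch between, first block to second, both blocks to the rest of the genome) kept their direction. The ratios of each block alone to the stretch between were not run under them. With 1 library left out, the tests of the other were unchanged, and only the number of tests adjusted for was smaller. The ratio of both blocks to the stretch between, 1.45, ran from 1.42 to 1.49 with 1 library left out, and passed the adjusted threshold with replicate 2 alone (exact adjusted p = 0.0316). Over its alternatives the adjusted p ran from 0.0316 to 0.446, the latter among the 10000 highest-scoring summits (ratio 2.96). At least 1 library did not pass above the median score, with shortened regions or with merging (exact adjusted p = 0.164, 0.167 and 0.0545). With both libraries kept and the 4 tests added after the counts were seen left out, the exact adjusted p was 0.0407 in each library for this ratio and for that of the first block to the second. The latter, 1.57, ran from 1.52 to 1.62 with 1 library left out, and passed in both libraries among summits above the median score (2.56, exact adjusted p = 0.00197) and with summits within 1 kb merged (1.72, exact adjusted p = 0.0363). With shortened regions (1.55, exact adjusted p = 0.167) or among the 10000 highest (2.84, exact adjusted p = 0.128), at least 1 library did not pass. The ratio of the first block to the second did not pass with replicate 2 alone (exact adjusted p = 0.0540), and it passed with replicate 1 alone (exact adjusted p = 0.0443). Against the rest of the genome, 4.51, the blocks had 5.12 above the median score, 4.61 among the 10000 highest, 3.95 with shortened regions and 4.10 with merging, and 4.44 to 4.58 with 1 library left out.

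Mean median percentiles, ranked again within what was kept, were 65.2 in the first block, 45.3 in the second and 54.7 in both. Above the median score they were 51.96, 43.5 and 44.5, among the 10000 highest 24.5, 25.9 and 25.4, and with merging 69.7, 47.9 and 57.9. With shortened regions the first block had 69.9 and both had 52.9. With 1 library left out the ranges were 64.4 to 65.97, 44.7 to 45.9 and 54.3 to 55.1.

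Pairs in the first block, the second and the stretch between, 32, 48 and 40, fell to 4, 3 and 1 among the 10000 highest. Above the median score the second block had 21 and the stretch between 20, and with merging the stretch between had 26. Paired shares in replicates 1 and 2, 80.8% and 71.4%, became 67.7% and 59.8% at 50 bp, and 89.9% at 500 bp in replicate 1. Above the median score they were 81.8% and 71.4%, and why they fell to 41.2% and 46.7% among the 10000 highest was not tested. The share of windows with a pair, 51.9%, became 33.0% above the median score, 6.60% among the 10000 highest, 29.9% in windows of 5 kb and 72.7% in windows of 20 kb. Pair counts and window shares change so by construction. Of the 30 named pairs, 29 remained at 50 bp (base 27806205 did not) and 8 among the 10000 highest. With 1 library left out no pairs can be formed. No paired analysis was possible because the 2 ChIP libraries form 1 group.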

Other observations

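The 500 kb on either side of the cluster, added after the data were seen, were also denser than the genome mean but less dense than the first block. The 500 kb before the first block, from base 25515001, held 17 pairs, or 34.0 per Mb (95% exact Poisson interval 19.8 to 54.4). The 500 kb after the second block, up to base 28370000, held 18 pairs, or 36.0 per Mb (21.3 to 56.9). The first block had 116.4 per Mb (79.6 to 164), whose interval lay above both, and the second block 61.5 (45.4 to 81.6), whose interval overlapped both.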
